A study of Mus musculus with 8 samples.

Results

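Protease inhibitors of the alpha-2-macroglobulin, serpin and cystatin families were followed in tissue around a cavity made in the mouse motor cortex. The 9 genes, A2m, Serpina3n, Serpine2, Serpini1, Serpinb6a, Serpinf1, Serpinh1, Cst3 and Cstb, were taken by symbol, and each had 1 row among the 17644 gene symbols of the deposited table. The tissue came from 11-week-old male C57BL/6NCrSlc mice in which a small piece of motor cortex was removed by aspiration. In 4 samples the brain was taken 1 week after the lesion, and in 4 it was taken immediately after it (no delay). Both groups therefore carry the craniotomy and the cavity, and no uninjured group was analysed here. Tissue within 1.0 mm of the cavity was collected, so each sample mixes neurons, glia, vessels and any cells that entered. Cap analysis of gene expression (CAGE) was used, an assay whose sequenced tags start at the cap of an RNA. The values are CPM, tags of a gene scaled to the same total in each library. Each RNA gives a tag at its 5' end whatever its length, so CPM is compared between genes as deposited.

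Alpha-2-macroglobulin traps proteases of many classes in a cage that closes around them, and the complex is cleared by the receptor Lrp1. Inhibitory serpins present a reactive loop that the protease cuts, after which serpin and enzyme stay locked together. Not every serpin inhibits: Serpinh1 (Hsp47) is a collagen chaperone of the endoplasmic reticulum, and Serpinf1 (pigment epithelium-derived factor) is a secreted trophic and antiangiogenic protein. Cystatins block papain-like cathepsins reversibly, Cst3 as a secreted protein and Cstb in the cytosol and nucleus.

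Summed over the genes of the deposited table, the libraries held 8278855 to 13998941 reads. At this depth 3 reads, the upper limit that 0 reads allow, are 0.214 to 0.362 CPM. Summed neuron markers were abundant in all libraries (5288 to 5573 CPM at 1 week and 5810.5 to 6600 CPM without delay). Those of oligodendrocytes varied within the groups and overlapped between them (2136 to 3658 CPM at 1 week, 1350 to 3107 CPM without delay). Summed markers of astrocytes (3431 to 4052 CPM at 1 week, 1532 to 1774 CPM without delay), microglia (1288 to 1826 CPM at 1 week, 415 to 425 CPM without delay), macrophages (110.4 to 309 CPM at 1 week, 9.73 to 13.4 CPM without delay), endothelium (195 to 231 CPM at 1 week, 122 to 137 CPM without delay), pericytes and smooth muscle (178 to 225 CPM at 1 week, 124 to 163 CPM without delay) and fibroblasts and meninges (38.6 to 170.3 CPM at 1 week, 18.6 to 31.4 CPM without delay) were higher in every 1-week library than in every no-delay library. At 1 week most of the macrophage sum was Lyz2 (162 CPM of 184 CPM on average), which had 5.50 CPM without delay. Of the 6 macrophage markers, Lyz2, Ms4a7 and Mrc1 did not overlap between the groups, whereas F13a1, Ccr2 and Cd163 did. Groups apart with 1 week on top were found for 22.7% of all genes tested. Without delay Ms4a7 had only 0.31 to 0.79 CPM. Ccr2 and Cd163 averaged under 1 CPM in each group. In bulk tissue, more cells of a type and more RNA per cell cannot be told apart, and the part of these marker shifts in the results below was not tested. The choroid plexus gene Ttr had 104 CPM in 1 no-delay library (tagged atcacg) and was at 0 in every 1-week library, while red cell genes (hemoglobins and Alas2) summed to 5361 CPM in the 1-week library tagged acagtg, to 348 to 2449 CPM in the remaining 1-week libraries and to 659 to 1562 CPM without delay. In the column names a 3-base tag is the same for all libraries of a group and differs between the groups, so any effect of that tag and the time after the lesion cannot be told apart.

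At 1 week 8 of the 9 inhibitor genes were higher and 1, Serpini1, was lower (limma on log2(CPM + 1), Benjamini-Hochberg adjusted p under 0.05 over the 14718 genes tested). Among all genes tested 36.8% were called, 23.4% as higher and 13.4% as lower. The share of higher genes among all calls was 63.6% here, but TMM scaling gave 52.4% and quantile normalization 43.4%. The median log2 fold change of the 9 genes was 0.97, beside 0.06 over all genes tested. The groups did not overlap for any of the 9, with the 1-week values on top for 8 and below for Serpini1, patterns shown by 22.7% and 12.0% of all genes tested. With 4 libraries a group there are 70 arrangements, so an exact permutation test (2-sided) cannot go under p = 0.0286, which each of the 9 genes reached. A2m passed the filter on low values through its 1-week libraries, since 2 of its no-delay libraries were under 1 CPM. The other 8 genes had at least 1 CPM in every library.

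**Figure D1:**
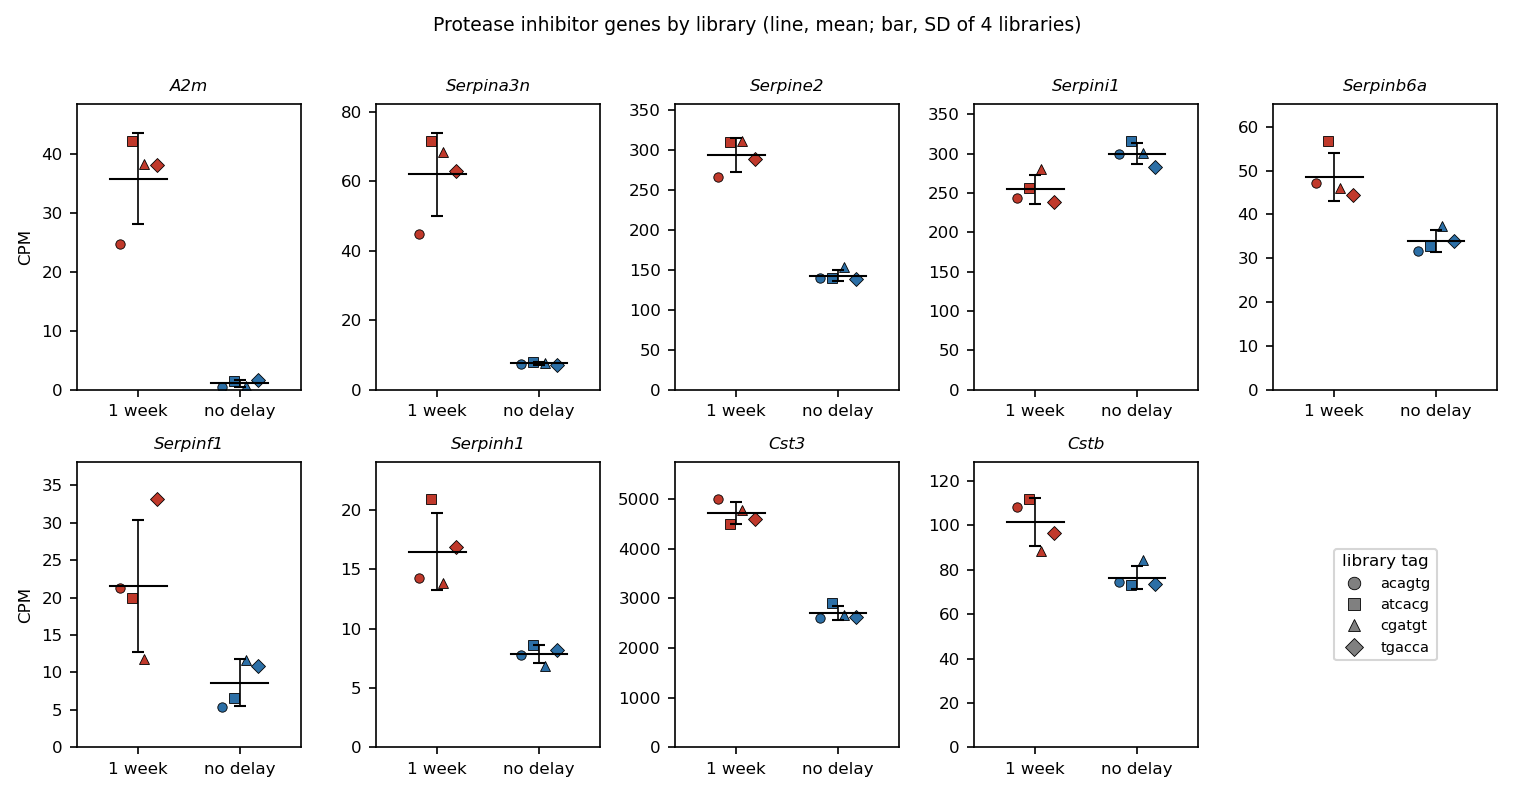
CPM of the 9 inhibitor genes in each of 8 libraries, 1 week (red) left of no delay (blue), with 1 marker shape per library tag, the group mean as a line and the SD of 4 libraries as a bar. The groups do not overlap in any panel, Serpini1 is the panel in which the 1-week libraries are the lower ones, and for Serpinf1 the groups nearly touch (11.8 CPM in the lowest 1-week and 11.7 CPM in the highest no-delay library).

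CAGE tags mark transcription starts, so the bases before the annotated starts of 4 of the genes are shown: Serpina3n, whose log2 fold change was the largest among the genes with a promoter entry; Serpine2, whose window was the richest in CpG; Serpini1, the gene that fell; and Cst3, the most abundant. Sequences are from RefSeq on build GRCm38.p6, another build than the mm9 of the deposited data, and run 5' to 3' on the gene's strand. Capitals mark GGGCGG or its reverse complement, the GC box. The windows are chr12:104406458-104406645 (plus strand) for Serpina3n, chr1:79858666-79858915 (minus strand) for Serpine2, chr3:75557243-75557492 (plus strand) for Serpini1 and chr2:148875513-148875762 (minus strand) for Cst3. For Serpina3n only the 188 bases outside the annotated gene are printed, and for the others 250.
Serpina3n: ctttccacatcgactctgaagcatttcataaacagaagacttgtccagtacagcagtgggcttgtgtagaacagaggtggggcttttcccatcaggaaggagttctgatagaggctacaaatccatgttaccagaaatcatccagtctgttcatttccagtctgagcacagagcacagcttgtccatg
Serpine2: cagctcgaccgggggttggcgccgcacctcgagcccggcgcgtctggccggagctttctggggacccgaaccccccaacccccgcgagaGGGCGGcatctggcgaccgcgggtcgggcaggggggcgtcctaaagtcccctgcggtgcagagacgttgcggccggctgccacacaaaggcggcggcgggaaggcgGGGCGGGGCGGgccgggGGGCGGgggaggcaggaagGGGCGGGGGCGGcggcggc
Serpini1: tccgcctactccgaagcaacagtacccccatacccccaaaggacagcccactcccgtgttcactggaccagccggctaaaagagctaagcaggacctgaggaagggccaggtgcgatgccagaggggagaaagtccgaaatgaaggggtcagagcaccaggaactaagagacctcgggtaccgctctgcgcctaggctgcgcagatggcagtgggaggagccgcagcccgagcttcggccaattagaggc
Cst3: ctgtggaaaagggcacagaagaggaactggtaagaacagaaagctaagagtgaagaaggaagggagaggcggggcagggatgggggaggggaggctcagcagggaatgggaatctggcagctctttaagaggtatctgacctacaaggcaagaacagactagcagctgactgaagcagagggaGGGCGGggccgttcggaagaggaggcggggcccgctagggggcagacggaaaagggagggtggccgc
Of the 9 genes, 7 had an entry (8 windows, since Serpinb6a has 2), and A2m and Cstb had none. For 6 of the 8 windows the bases just after the start matched a GENCODE transcript of the gene. No such match was found for the Serpina3n and Serpini1 windows. The 250-base Serpina3n window held 1 CpG and 46.4% GC, against a median of 6 CpG and 52.4% GC over 32851 windows. By contrast the Serpine2 window held 34 CpG, 78.8% GC and 6 GC boxes, some of them overlapping. Cst3 had 1 GC box and 8 CpG, and Serpini1 had no GC box and 13 CpG. A GC box occurred in 32.7% of all windows. The patterns TGANTCA (AP-1) and TATAAA, each searched on both strands, were found in none of the 8 windows and in 6.75% and 12.4% of all windows. TTCNNNGAA, the pattern of STAT factors, was found once, in the upstream Serpinb6a window, and in 7.02% of all windows. These matches describe letters in the window, not bound sites.

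A2m, the broad-range trap, was nearly silent in fresh tissue. Its 1-week libraries had 24.6, 42.2, 38.3 and 38.1 CPM, and its no-delay libraries had 0.51, 1.46, 0.69 and 1.67 CPM; here and below, values follow the alphabetical order of the library tags, from the library tagged acagtg, over those tagged atcacg and then cgatgt, to the one tagged tgacca. The lowest 1-week library had 14.8 times the CPM of the highest no-delay library. The means were 35.8 CPM ± 7.68 at 1 week and 1.08 CPM ± 0.568 without delay (SD, n = 4 each), so the 1-week mean was 33.1 times the other. The no-delay values rest on 44 reads in all, against 1779 reads at 1 week, and reads pooled over libraries and scaled by depth gave a ratio of 34.0 (95% interval 25.2 to 46.9, counting error only). On the log2(CPM + 1) scale the fold change was 4.16 (SE 0.21, limma adjusted p = 5.9e-08), which ranked 8 among the genes tested. For so low a gene this fold change depends on the pseudocount, and it was 4.84 with 0.25 and 2.73 with 5. A2m passed the filter on low values through its 1-week libraries, which limits the meaning of its p-value and rank. With no filter the limma adjusted p was 4.0e-07.

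Serpina3n, a secreted serpin of reactive astrocytes that inhibits neutrophil elastase and other serine proteases, also stood far apart. The 1-week libraries had 44.9, 71.6, 68.4 and 63.1 CPM and the no-delay libraries 7.38, 7.96, 7.72 and 7.09 CPM. The 1-week libraries spread 1.59-fold from lowest to highest, with a coefficient of variation of 19.2% beside 5.06% without delay. The ratio of means was 8.23 and the log2 fold change 2.86 (SE 0.13, limma adjusted p = 3.5e-08). Serpina3n belongs to a cluster of close paralogs, of which Serpina3g, Serpina3h and Serpina3i were in the table with at most 0.165 CPM on average in either group. How the authors assigned tags that match several paralogs is not given in the sources used here, so the split within the cluster is uncertain.

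A2m and Serpina3n shared their lowest 1-week library, tagged acagtg, at 0.49 and 0.43 below the group mean on the log2(CPM + 1) scale. This library was also the lowest at 1 week for Serpine2, at 0.14 below. It also held the lowest 1-week value of Gfap (793 CPM, the others 1114 to 1437 CPM) and the highest sum of red cell genes, whose part in these values was not tested. Without this library the log2 fold changes were 4.32 for A2m and 3.01 for Serpina3n.

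**Figure D2:**
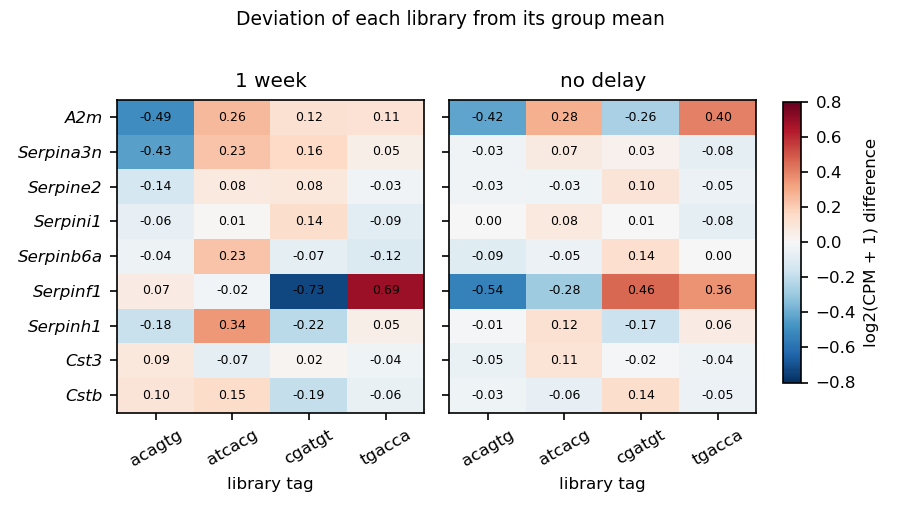
Deviation of each library from the mean of its group on the log2(CPM + 1) scale, for 9 genes (rows) and 4 libraries per group (columns, by tag), 1 week in the left panel and no delay in the right. Serpinf1 varies most in both groups (-0.73 to 0.69 at 1 week), Cst3 varies by at most 0.11, and A2m and Serpina3n are both low in the 1-week library tagged acagtg.

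Serpine2 (protease nexin), an inhibitor of thrombin and plasminogen activators bound to cell surfaces, about doubled. Its 1-week libraries had 267, 310.4, 311 and 288 CPM and its no-delay libraries 140.15, 139.5, 153 and 138 CPM. The coefficient of variation was 7.20% at 1 week and 5.01% without delay. For Serpine2 the log2 fold change came to 1.04 (SE 0.07, limma adjusted p = 3.4e-07).

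Serpini1 (neuroserpin), which neurons secrete and which inhibits tissue plasminogen activator, was the 1 gene that fell. Its 1-week libraries had 243, 256, 280.2 and 239 CPM and its no-delay libraries 299.8, 316, 301 and 283 CPM. The highest 1-week library lay just under the lowest no-delay library. The means were 254 CPM ± 18.7 at 1 week and 299.9 CPM ± 13.3 without delay (SD, n = 4 each), and the log2 fold change was -0.24 (SE 0.07, limma adjusted p = 0.0150). The limma call did not hold when the no-delay library tagged atcacg, the one with Ttr, was left out (adjusted p = 0.0502) or with quantile normalization (adjusted p = 0.0522); over 18 alternatives the limma, edgeR and DESeq2 adjusted p ranged from 5.9e-05 to 0.0522. Of the 7 neuron markers, 2 (Rbfox3 and Syt1) were lower, 5 were not called and none was higher, with a median log2 fold change of -0.10. The shares over all genes tested were 13.4% lower and 23.4% higher. The Syt1 call was lost in 7 of 18 alternatives. At 1 week the Serpini1 libraries (239 to 280.2 CPM) overlapped those of Serpine2 (267 to 311 CPM), and without delay all Serpini1 libraries (283 CPM or more) were above those of Serpine2 (at most 153 CPM).

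Serpinb6a, an intracellular serpin whose human counterpart inhibits cathepsin G and trypsin-like proteases, rose moderately. Its libraries had 47.1, 56.8, 46.0 and 44.6 CPM at 1 week and 31.7, 32.7, 37.3 and 34.0 CPM without delay. The library tagged atcacg was the highest at 1 week, and the groups stayed apart. Its log2 fold change was 0.50 (SE 0.09, limma adjusted p = 8.6e-04). Its close paralog Serpinb6b averaged 2.79 CPM at 1 week and 1.17 CPM without delay (limma adjusted p = 0.00302), and the split of tags between the pair is uncertain. Serpinb6b reached 1 CPM in 3 of the 4 no-delay libraries. Serpinb6a lies in a chromosomal cluster with Serpinb1a, Serpinb1b, Serpinb6b and Serpinb9, and the 4 of these 5 genes that were tested were called higher, as were 23.4% of all genes. The Serpinb1a call was lost in 6 of 18 alternatives and those of Serpinb6b and Serpinb9 in 1 each.

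Serpinf1 was called higher, and its groups nearly touched. Its libraries had 21.3, 19.9, 11.8 and 33.2 CPM at 1 week and 5.33, 6.58, 11.7 and 10.8 CPM without delay. The lowest 1-week library was 1.01 times the highest no-delay library, and its coefficient of variation was 40.9% at 1 week, the highest of the 9 genes, and 36.3% without delay, second to the 52.5% of A2m. Its call as higher rests on a log2 fold change that came to 1.20 (SE 0.28, limma adjusted p = 0.00495), and leaving out a library gave 0.98 to 1.45. Summed fibroblast and meningeal markers (Col1a1, Col1a2, Col3a1, Dcn, Lum and Igf2) had 58.1, 170.3, 38.6 and 107 CPM in the 1-week libraries and 24.4, 18.6, 31.4 and 30.6 CPM in the no-delay libraries. The 1-week library tagged cgatgt was the lowest for both Serpinf1 and these markers, but the highest library differed (tgacca for Serpinf1, atcacg for the markers), and the part of these cells in the result was not tested.

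Serpinh1, the collagen chaperone, had 14.3, 20.9, 13.9 and 16.9 CPM at 1 week and 7.79, 8.60, 6.83 and 8.23 CPM without delay. Its lowest 1-week library was 1.61 times its highest no-delay library. On the log2 scale the fold change came to 0.97 (SE 0.13, limma adjusted p = 1.4e-04). It was highest at 1 week in the library tagged atcacg, which also had the highest summed collagens (396 CPM, the rest of the 1-week group 215 to 266 CPM). Without that library the log2 fold change of Serpinh1 was 0.85 (limma adjusted p = 3.6e-04).

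Cst3 (cystatin C) was by far the most abundant of the 9 genes. On average it took 0.472% of the tags counted over all genes of the table at 1 week and 0.270% without delay. Its libraries had 5003, 4490.3, 4775 and 4599 CPM at 1 week and 2607, 2911, 2671 and 2625 CPM without delay. Among the 17644 genes it ranked 6 by mean CPM at 1 week and 11 without delay. The log2 fold change was 0.80 (SE 0.09, limma adjusted p = 2.9e-05). In CPM this was the largest difference of the 9 genes, 2013 CPM, while the other 8 genes together averaged 834 CPM at 1 week and 578 CPM without delay.

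Cstb (cystatin B) changed least among the genes that rose. Its libraries had 108, 112, 88.4 and 96.7 CPM at 1 week and 74.6, 73.0, 84.3 and 73.8 CPM without delay. The lowest 1-week library, tagged cgatgt, was 1.05 times the highest no-delay library. The log2 fold change was 0.40 (SE 0.08, limma adjusted p = 0.00256).

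In order of mean CPM at 1 week the genes were Cst3, Serpine2, Serpini1, Cstb, Serpina3n, Serpinb6a, A2m, Serpinf1 and Serpinh1. Serpina3n and Serpinb6a overlapped in their 1-week libraries (44.9 to 71.6 and 44.6 to 56.8 CPM), as did Serpinf1 and Serpinh1 (11.8 to 33.2 and 13.9 to 20.9 CPM). Without delay the order was Cst3, Serpini1, Serpine2, Cstb, Serpinb6a, Serpinf1, Serpinh1, Serpina3n and A2m, and there Serpinf1, Serpinh1 and Serpina3n overlapped between 5.33 and 11.7 CPM. Serpina3n thus held the fifth place of the 9 at 1 week and the second lowest without delay.

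Of the 9 genes, 7 were then set against a receptor, marker or target within the same library. The 7 log2 ratios of CPM + 1 were compared by exact 2-sided permutation tests, adjusted over the 7 by Benjamini-Hochberg. A2m rose far more than its receptor: Lrp1 averaged 336 CPM at 1 week and 284 CPM without delay, and the A2m to Lrp1 log2 ratio was 3.92 higher (exact p = 0.0286, adjusted p = 0.0400), or 4.95 without the added 1, which weighs on A2m near 1 CPM. Serpina3n rose less than the astrocyte filament gene Gfap. There were 0.0498 to 0.0567 Serpina3n tags per Gfap tag at 1 week and 0.205 to 0.277 without delay. The log2 ratio fell by 2.29 (exact p = 0.0286, adjusted p = 0.0400). This holds for Gfap only, which had the largest log2 fold change (5.16) of the 6 astrocyte markers. Aqp4 (2.15), Gja1 (1.51), Aldh1l1 (0.78), Slc1a3 (0.64) and Slc1a2 (0.59) each rose less than Serpina3n (2.86).

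Both plasminogen activator inhibitors were compared with Plat, the gene of tissue plasminogen activator, which was itself higher (29.3 CPM ± 3.46 at 1 week and 17.7 CPM ± 2.41 without delay, SD, n = 4 each; limma adjusted p = 4.5e-04). The Serpini1 to Plat ratio was 7.68 to 11.0 at 1 week and 14.6 to 20.6 without delay, and its log2 value fell by 0.93 (exact p = 0.0286, adjusted p = 0.0400). The Serpine2 to Plat ratio was 9.31 to 12.2 at 1 week and 6.84 to 9.08 without delay, with groups that nearly touched. Its log2 value was 0.34 higher (exact p = 0.0286, adjusted p = 0.0400). This direction holds for Plat only. The urokinase gene Plau rose more than Serpine2 (ratio of means 3.05 against 2.06), and a ratio to Plau was not tested.

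The cystatins were compared with the summed papain-like cathepsin genes Ctsb, Ctsc, Ctsf, Ctsh, Ctsk, Ctsl, Ctso, Ctss, Ctsw and Ctsz. The sum averaged 2133 CPM ± 358 at 1 week and 936 CPM ± 46.8 without delay (SD, n = 4 each). Most of it was Ctsb, with 1233 CPM at 1 week and 675 CPM without delay (ratio of means 1.83). Single cathepsins had ratios of means from 1.00 (Ctsk) to 6.85 (Ctss), and cystatin ratios to single cathepsins were not tested. There were 0.0413 to 0.0578 Cstb tags per cathepsin tag at 1 week and 0.0753 to 0.0919 without delay, and the log2 ratio fell by 0.77 (exact p = 0.0286, adjusted p = 0.0400). For Cst3 the ratio was 1.70 to 2.67 at 1 week and 2.63 to 3.30 without delay. These groups overlapped, and the log2 difference of -0.37 did not pass (exact p = 0.0571, adjusted p = 0.0571). It was -0.24 without the 1-week library tagged atcacg, where the ratio was lowest. The Serpinh1 to collagen ratio, over 14 collagen genes, was 0.0528 to 0.0662 at 1 week and 0.0402 to 0.0532 without delay, again overlapping (log2 difference 0.33, exact p = 0.0571, adjusted p = 0.0571).

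**Figure D3:**
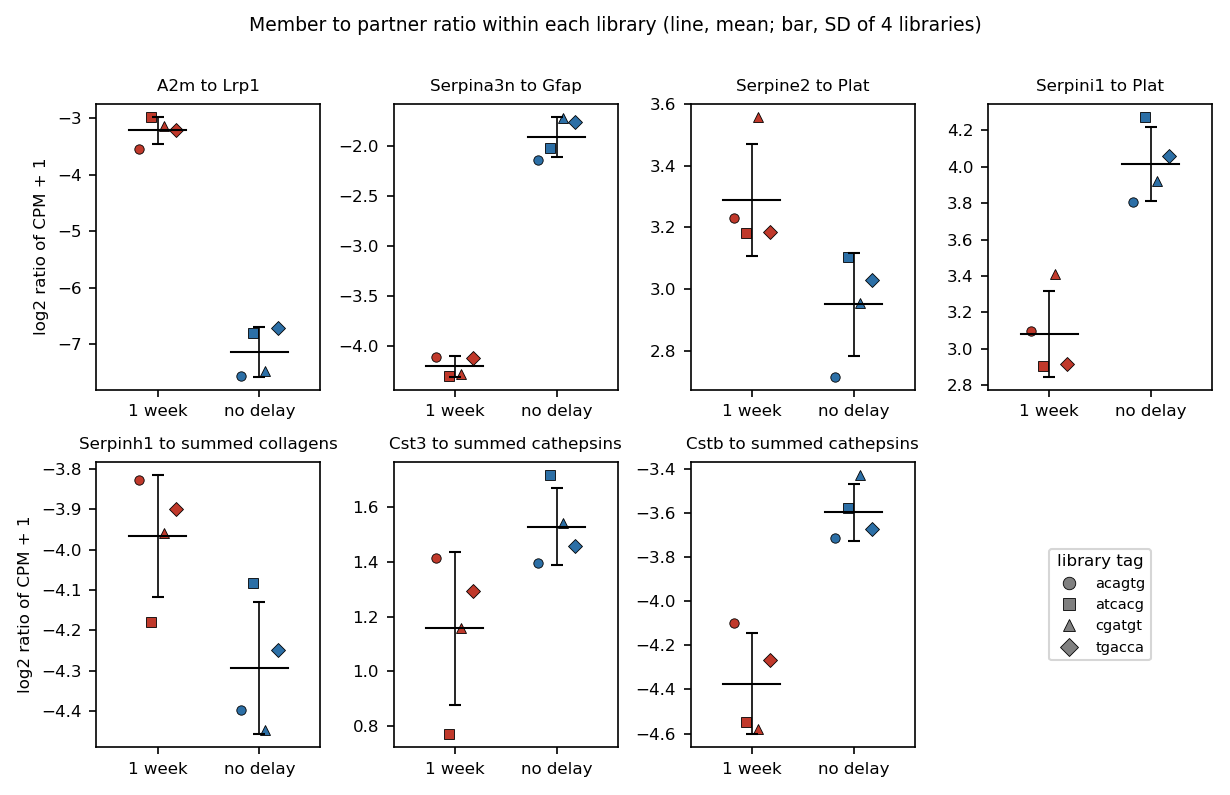
Log2 ratio of CPM + 1 of an inhibitor to its partner in each library, 1 week (red) left of no delay (blue), with 1 marker shape per library tag, the mean as a line and the SD of 4 libraries as a bar; axes do not start at 0. The groups are apart for A2m, Serpina3n, Serpine2, Serpini1 and Cstb, and overlap for Serpinh1 and Cst3.

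The other members of the families moved in both directions. For comparison, 23.4% of all genes tested were called higher and 13.4% lower. Of 57 further serpin symbols, 14 had a row in the table and 6 were tested, of which 4 were higher, 1 was lower and Agt was not called (adjusted p = 0.0906). Serping1, the inhibitor of complement C1, averaged 14.9 CPM ± 2.13 at 1 week and 3.11 CPM ± 0.666 without delay (SD, n = 4 each), with a log2 fold change of 1.96 (limma adjusted p = 9.0e-07). Serpinb1a, an inhibitor of neutrophil proteases, had 11.7 to 25.1 CPM at 1 week and 8.23 to 16.0 CPM without delay, overlapping, and its call (limma adjusted p = 0.0237) was lost in 6 of 18 alternatives. The gene that fell was Serpinb8, with 11.2 CPM ± 0.613 at 1 week and 19.0 CPM ± 1.52 without delay (log2 fold change -0.71, limma adjusted p = 9.1e-05). Serpinb8 is named after its values were seen.

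Of 18 further cystatin symbols 3 had a row and 2 were tested. Cst7 (cystatin F), an inhibitor made by immune cells that acts within lysosomes, had 840 reads at 1 week and 2 without delay, a ratio of 353 after scaling by depth (95% interval 97.4 to 2918, counting error only). Cst6 (cystatin M) fell to 22.7 CPM ± 1.95 at 1 week, against 34.1 CPM ± 1.63 without delay (SD, n = 4 each; log2 fold change -0.57, limma adjusted p = 2.1e-04). In the A2M family Cd109, a membrane-anchored relative of A2m, had 216 reads at 1 week and 6 without delay. Cst7 and Cd109 were under 1 CPM in all 4 no-delay libraries and so passed the filter on low values only through the 1-week group.

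Among 27 inhibitors of other types (Kunitz, Kazal, WAP and unrelated proteins), 17 had a row and 14 were tested, of which 3 were higher, 3 were lower and 8 were not called, with a median log2 fold change of 0.03. The shares over all genes tested were 23.4% higher and 13.4% lower. Tfpi, the tissue factor pathway inhibitor, averaged 6.09 CPM at 1 week and 2.38 CPM without delay, and Spint1, a Kunitz inhibitor of membrane serine proteases, 2.79 CPM at 1 week and 0.773 CPM without delay. Spint1 reached 1 CPM in only 2 no-delay libraries and passed the filter on low values through the 1-week group. App, whose longer isoforms carry a Kunitz domain, fell to 815 CPM ± 66.6 at 1 week, against 1208.5 CPM ± 102 without delay (SD, n = 4 each; log2 fold change -0.57, limma adjusted p = 2.5e-04). The remaining calls were Cast higher and Spint2 and Pcsk1n lower, and the last 2 were lost in 9 and 8 of 18 alternatives.

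**Figure D4:**
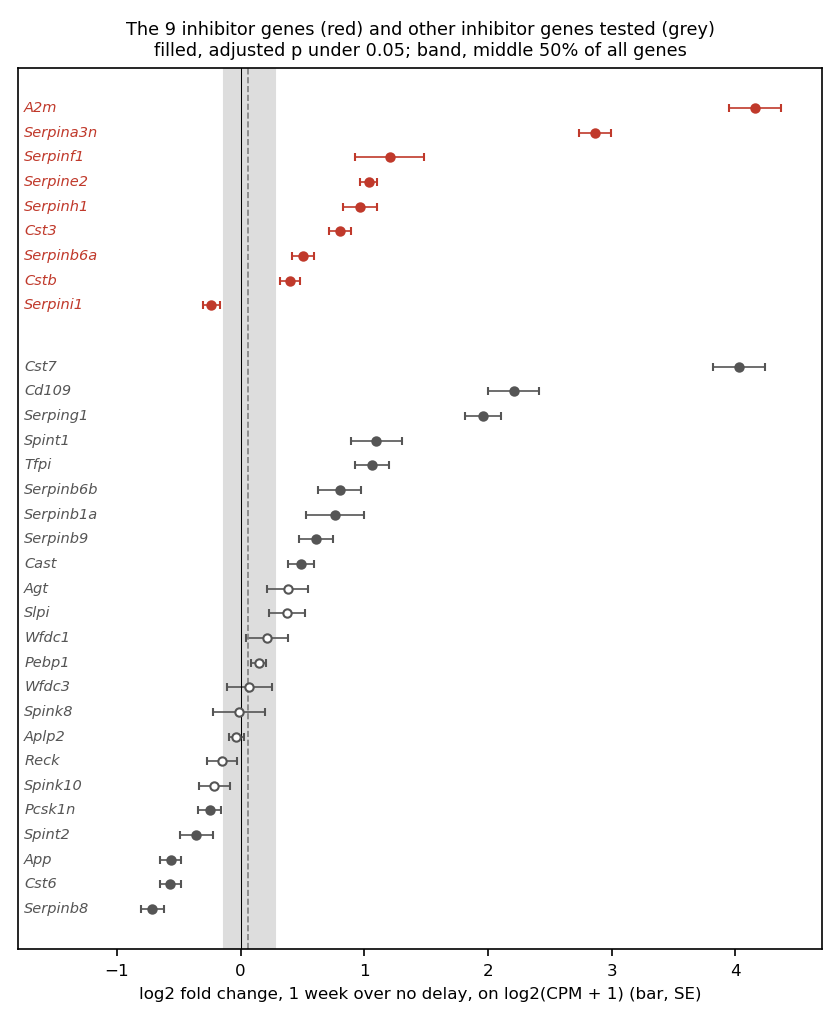
Log2 fold change, 1 week over no delay, on the log2(CPM + 1) scale with its SE (bars), for the 9 inhibitor genes (red) and the other inhibitor genes tested (grey); filled points were called, and the band and dashed line mark the interquartile range and the median of all genes tested. A2m (4.16) and Cst7 lie farthest to the right, and Serpini1 (-0.24) is the red point left of 0.

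Proteases of the classes that these families inhibit were mostly higher as well. Over all genes tested 23.4% were called higher and 13.4% lower, a balance that depends on the scaling. Of 9 serine proteases tested 6 were higher, none was lower and 3 were not called, with a median log2 fold change of 0.70. Klk6, a kallikrein of oligodendrocytes, averaged 22.9 CPM ± 9.59 at 1 week and 1.41 CPM ± 0.433 without delay (SD, n = 4 each), and Plau, the urokinase gene, 10.6 CPM ± 2.61 at 1 week and 3.46 CPM ± 0.491 without delay. Klk6 reached 1 CPM in 3 of the 4 no-delay libraries. Hpn, the membrane serine protease hepsin, had 94 reads at 1 week and 2 without delay, a depth-scaled ratio of 39.5 (95% interval 10.6 to 331, counting error only); it was under 1 CPM in every no-delay library, and its place among the 6 rests on passing the filter through the 1-week group. Of 10 papain-like cathepsins and legumain genes tested 9 were higher and Ctsk was not called (adjusted p = 0.995), with a median of 1.32. Ctss averaged 251 CPM ± 32.4 at 1 week and 36.6 CPM ± 4.35 without delay, Ctsz 191 CPM ± 51.9 at 1 week and 35.3 CPM ± 2.06 without delay, and Ctsh 65.9 CPM ± 8.37 at 1 week and 13.3 CPM ± 2.01 without delay (SD, n = 4 each).

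Of 14 collagen genes, the clients of Serpinh1, 7 were higher, 6 were not called and Col12a1 was lower, a call lost in 7 of 18 alternatives. Beside these stand the 23.4% higher and 13.4% lower over all genes tested. Col6a3, 1 of the 7, reached 1 CPM in only 1 no-delay library and passed the filter on low values through the 1-week group. Col3a1 averaged 20.1 CPM at 1 week and 2.25 CPM without delay, but 9.19 CPM at 1 week without the library tagged atcacg (53.0 CPM). Col1a1 averaged 37.2 CPM ± 26.5 at 1 week and 7.31 CPM ± 2.51 without delay, and Col18a1 7.33 CPM ± 3.26 at 1 week and 1.59 CPM ± 0.329 without delay (SD, n = 4 each). Of 10 receptor genes tested, 4 (Plaur, Plxdc2, Pnpla2 and Lrp1) were higher, 1 was lower and 5 were not called. Plxdc2, a receptor of the Serpinf1 product, had 59.0 CPM ± 8.99 at 1 week and 33.3 CPM ± 4.24 without delay (SD, n = 4 each), and Plaur, the urokinase receptor, 2.62 CPM at 1 week and 0.733 CPM without delay. Plaur, too, reached 1 CPM in only 1 no-delay library and passed the filter through the 1-week group. The Pnpla2 and Lrp1 calls were lost in 11 and 4 of 18 alternatives.

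**Figure D5:**
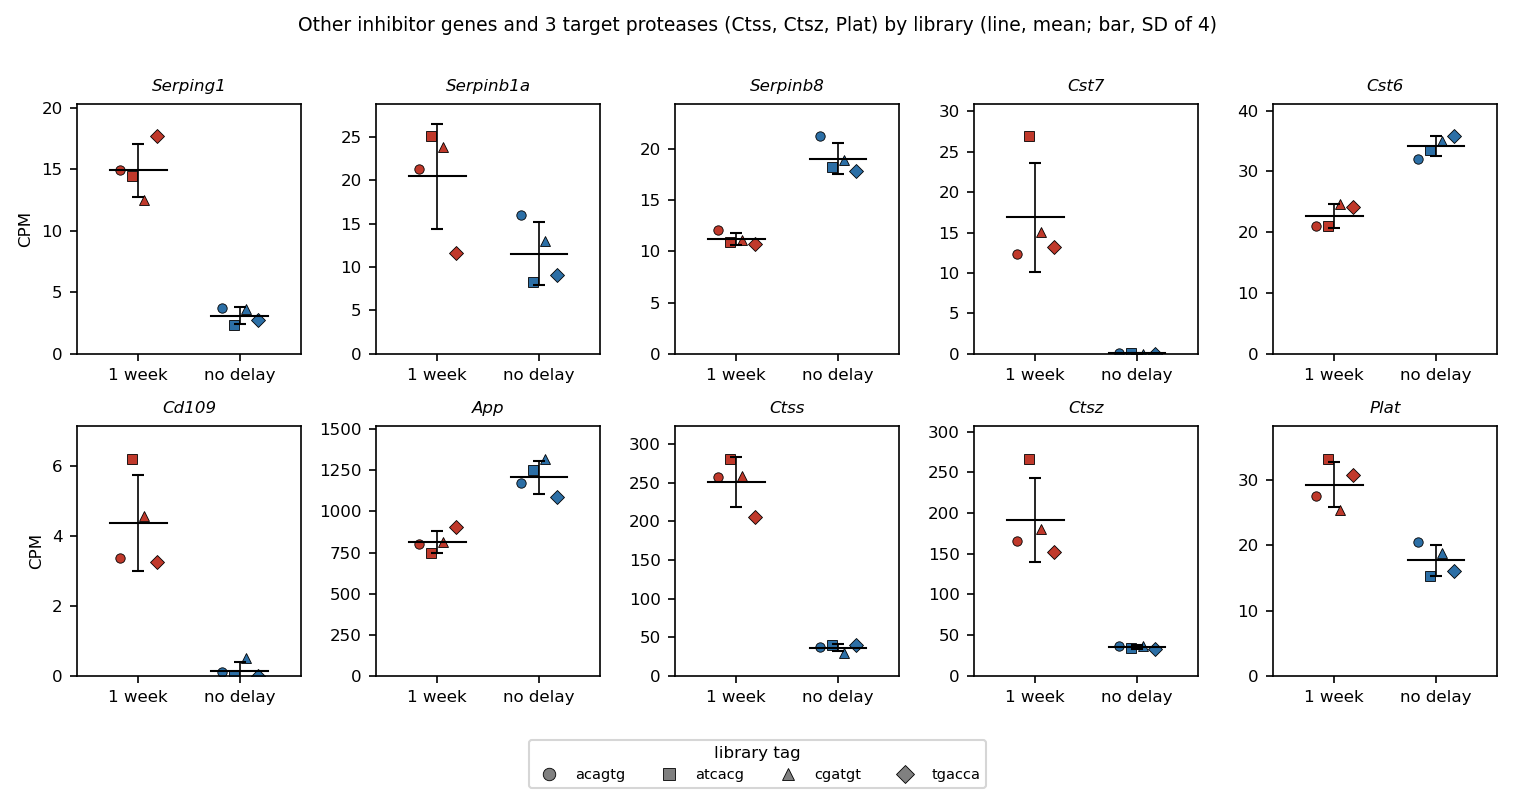
CPM of 7 other inhibitor genes and of the proteases Ctss, Ctsz and Plat in each library, 1 week (red) left of no delay (blue), with 1 marker shape per library tag, the mean as a line and the SD of 4 libraries as a bar. Serpinb8, Cst6 and App are lower at 1 week, and Serpinb1a overlaps between the groups (11.7 to 25.1 CPM at 1 week, 8.23 to 16.0 CPM without delay).

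The genes whose log2(CPM + 1) followed an inhibitor most closely over the 8 libraries were found among 12321 genes with a mean of 5 CPM or more. The 8 points fall into the 2 groups of 4, so each Pearson r spans the difference between groups and is given as a description only. For A2m they were Kcne1l (r = 0.995), Stat3 (0.995) and Emr1 (0.994), and for Serpina3n Gfap (0.998), Tnfrsf1a (0.997) and Add3 (0.997). Serpinf1 was followed by Colec12 (0.985), Fbln1 (0.982) and Slc13a3 (0.978), and Serpini1 by Fam126b (0.984), Psmd14 (0.968) and Kcnq5 (0.961). For Cst3 they were Ntsr2 (0.994), Bst2 (0.992) and Trim56 (0.991).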

How the data were processed

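Libraries were read single-end, per the labels' protocols; BWA 0.5.9 and build mm9 are named in the submitters' processing notes. How tags were assigned to genes, and whether by strand, is not given in the sources used here. In the authors' deposited table each gene has 1 CPM value a library. Column names give the group and a tag but no replicate number. CPM values were whole multiples of 1 read (at least 99.99% of values in each library within 0.1 reads), so reads were recovered.

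Genes were tested on log2(CPM + 1) with limma 3.58.1 in R 4.3.3, with a trended prior variance, for 14718 genes with 1 CPM or more in at least 4 libraries; 2926 genes were not tested. The test was 2-sided, with genes called at Benjamini-Hochberg adjusted p under 0.05. Each fold change is 1-week over no-delay and these understate changes of low genes. Alternatives were other pseudocounts, filters and scalings, library weights, edgeR 4.0.16 and DESeq2 1.42.0 on recovered reads, each library left out, and the library tag as a block. The procedure was tested on simulated data. The protocols describe 4 brains per time; p-values measure the spread between these samples. None of the 9 genes shared its reads with another row.

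Named genes are the 9 inhibitors, the ratio partners, up to 3 called genes per list with the largest absolute log2 fold change at a mean of 1 CPM or more, and the 3 genes closest in r to 5 of the inhibitors; marker lists are given by counts or sums. Further list genes, such as Serpinb8, Cast, Jak2, Col6a3, Ctsb, Lyz2 and the astrocyte markers beside Gfap, were named after their values were seen. A few genes that the rule names are not reported here. The members and lists were chosen with earlier results of these data known.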

Additional observations from a re-analysis of the deposited data

Results flagged for a closer look

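Of 36 genes examined in both groups, 6 single values stood apart from the other libraries of their group by Dixon's criterion, where chance alone marks about 1 group in 20. Serpine2 had 153 CPM in the no-delay library tagged cgatgt, against 138 to 140.15 CPM in the other no-delay libraries. Cstb had 84.3 CPM in the same library, against 73.0 to 74.6 CPM. Both values lie toward the 1-week level, and Cstb has its lowest 1-week value under the same 6-base tag. Col3a1 had 53.0 CPM in the 1-week library tagged atcacg, against 7.97 to 10.8 CPM. Col1a1 had 3.57 CPM in the no-delay library tagged atcacg, against 8.23 to 8.91 CPM. Hpn had 0.21 CPM in the no-delay library tagged tgacca and 0 in the others, and Cntf had 0 CPM in the no-delay library tagged acagtg and 0.09 to 0.1 CPM in the others; these no-delay values lie under the 3-read limit.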

How the results depend on the processing

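The columns carry no replicate number, but each 6-base tag occurs once in each group. A fit with that tag as a replicate block, chosen after seeing the data, gave 3484 genes higher and 1986 lower, and 8 inhibitor genes higher and 1 lower (Serpini1, limma adjusted p = 0.0138); it changed no call of the 9. Deviations of same-tagged libraries from their group means correlated at -0.03 to 0.18 across genes. Between libraries of unlike tags the range was -0.16 to 0.09, so the 0.18, for the tag tgacca, lay above it. Nothing in the labels says that a tag marks a shared animal or day, so the tags were not taken as pairs. The 8 inhibitor genes called higher stayed called in each of the other 18 alternatives, with log2 fold changes of 2.73 to 4.97 for A2m, 2.40 to 3.01 for Serpina3n, 0.97 to 1.08 for Serpine2, 0.93 to 1.45 for Serpinf1 and 0.33 to 0.46 for Cstb. Serpini1 kept its direction in all of them (-0.31 to -0.18), but the number of inhibitor genes called lower was 0 with quantile normalization (log2 fold change -0.18) and 0 to 1 with each library left out; the cause was not tested. Leaving out a library gave 8 inhibitor genes called higher throughout, 2600 to 3443 genes called higher and 1406 to 2132 called lower over the whole table, where all libraries gave 3439 and 1971. The balance depends on the scaling. With CPM as deposited 63.6% of calls were higher, with TMM 52.4%, and with quantile normalization 43.4% (3211 genes lower), while the median over the whole table moved between 0.06 and -0.04. None of the 7 ratios reversed when a library was left out or the pseudocount dropped. At this depth A2m without delay rests on few reads, which limits the precision of its ratio.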

Other observations

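A further list held cytokines, receptors and transcription factors of the acute-phase response, in which cytokines of the interleukin-6 family signal through Stat3. Of 13 genes tested, 10 were higher, Jak2 was lower, and Lifr and Cebpb were not called. Among all genes tested 23.4% were called higher and 13.4% lower, a balance that depends on the scaling. The calls of Jak1 (higher) and Jak2 were each lost in 7 of 18 alternatives and that of Rela (higher) in 1. Cebpd, a transcription factor of the acute phase, averaged 29.6 CPM ± 4.65 at 1 week and 8.07 CPM ± 2.63 without delay, and Osmr, the oncostatin M receptor gene, 15.3 CPM ± 2.61 at 1 week and 3.79 CPM ± 0.957 without delay (SD, n = 4 each). Stat3 averaged 67.3 CPM ± 4.01 at 1 week and 37.9 CPM ± 1.91 without delay (log2 fold change 0.81, limma adjusted p = 3.1e-06). Cntf, a cytokine of the same receptor family, had 214 reads at 1 week and 3 without delay, a depth-scaled ratio of 59.9 (95% interval 20.2 to 293, counting error only), and it passed the filter on low values only through the 1-week group. The receptor subunit gene Il6st was below the filter, at 0.14 CPM on average at 1 week and 0 without delay. How tags were assigned to genes is not given, so a lack of Il6st RNA cannot be told apart from tags not assigned to it. Il6ra averaged 27.9 CPM at 1 week and 11.6 CPM without delay.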
